A study of Ovis aries with 8 samples.

Results

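The genes described here are 10 that make serine, pass its carbon on, or respond to a shortage of amino acids: PHGDH, PSAT1, PSPH, MTHFD2, ASNS, SESN2, DDIT4, TRIB3, CHAC1 and SLC7A11. They were taken by symbol from a table of 33609 genes. All 10 had a row, and all 10 passed the filter on low counts, as did 18193 genes in all. RNA was sequenced from the mediobasal hypothalamus, the base of the brain that holds the arcuate nucleus, of adult Ile-de-France ewes. The food-restricted group and the well-fed group, which ate ad libitum, each came from 60 ewes, 30 in each of 2 years. Each group was sequenced as 4 pools, each an equal mix of RNA from 15 ewes, so that n counts pools and their spread is between mixes of many ewes, not between single animals. Total counts were 36192025 to 48125991 a pool. The labels give neither the degree and length of the restriction nor the year of a pool. A pool mixes whole tissue, in which fewer cells of a type and less RNA per cell cannot be told apart.

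Serine is built from a glycolytic intermediate in 3 steps, carried by PHGDH, PSAT1 and PSPH, and in the brain this route is best known in astrocytes, which supply neurons with L-serine. Its carbon then enters the folate cycle, in which MTHFD2 carries a mitochondrial step. When a cell runs short of an amino acid, uncharged tRNA activates the kinase GCN2 (gene EIF2AK4), which phosphorylates the initiation factor eIF2alpha and favours translation of the transcription factor ATF4. In mouse and human cells, ATF4 induces the serine genes, MTHFD2, ASNS, SESN2, DDIT4, TRIB3, CHAC1 and SLC7A11. ATF4 is controlled largely at translation, so its own transcript need not show its activity.

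None of the 10 genes passed the test between food-restricted and well-fed pools (edgeR quasi-likelihood test, adjusted over 18193 genes, threshold 0.05). Over all genes 0.0055% were called, which is 1 gene, AGRP, higher in the food-restricted pools. By DESeq2 and limma voom, too, none of the 10 was called. At an unadjusted p under 0.05 stood 1 of the 10, MTHFD2, lower in the food-restricted pools, against 1.7% of all tested genes in either direction and 1.03% lower. The fitted log2 fold change was below 0 in 7 of the 10, against 47.1% of all genes. Its median was -0.14 over the 10 and 0.01 over all tested genes. In none of the 10 were the pools of both groups fully apart, as they were in 1.6% of all genes. The 10 genes were chosen with earlier results of these data known. These counts, and the unadjusted p and rank of MTHFD2 below, are therefore a description and no independent support.

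**Figure D1:**
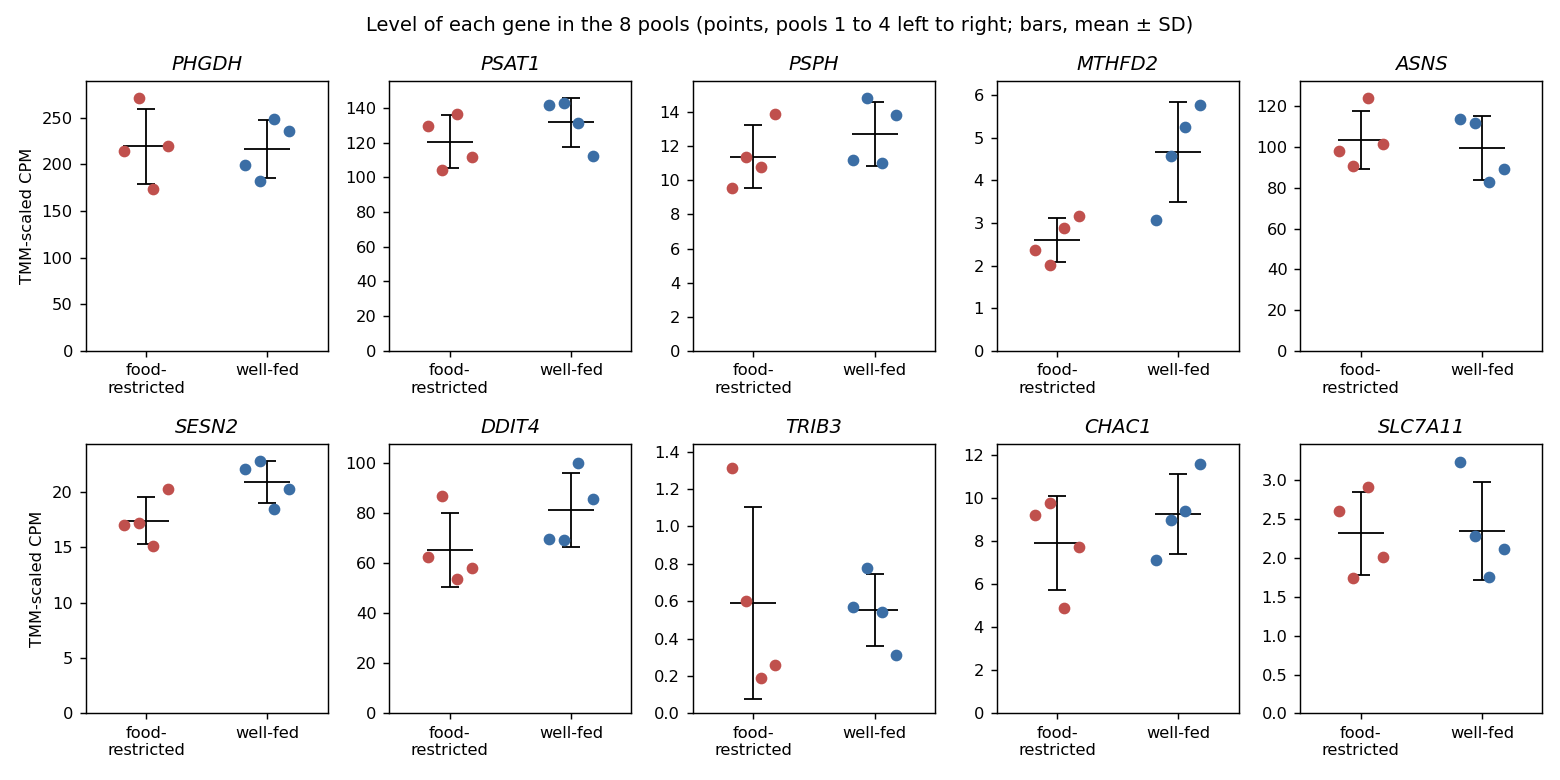
CPM (read counts scaled to library size, with TMM factors; y axis, from 0) of each gene in the 4 food-restricted pools (red, left) and the 4 well-fed pools (blue, right), with mean and SD. MTHFD2 came closest to a separation of the groups, with 1 food-restricted pool (3.15 CPM) above the lowest well-fed pool (3.08 CPM), and the groups overlapped in every panel.

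MTHFD2 (gene ID 100137069) encodes the mitochondrial methylenetetrahydrofolate dehydrogenase and cyclohydrolase, an enzyme abundant in embryonic and dividing cells and low in most adult tissue. It was at 2.37, 2.01, 2.87 and 3.15 CPM in food-restricted pools 1 to 4, against 3.08, 4.57, 5.25 and 5.77 CPM in well-fed pools 1 to 4. CPM is the read count scaled to the size of the library and is not divided by gene length, so levels are compared between pools of the same gene only. All 4 food-restricted pools lay below the median of the well-fed pools, and well-fed pool 1 lay among the food-restricted ones. The values rest on 84 to 252 reads a pool.

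The mean of MTHFD2 was 2.60 ± 0.511 CPM with food restriction and 4.67 ± 1.17 CPM in the well-fed pools (SD, n = 4 each). Its log2 fold change was -0.84 (SE 0.26, 95% interval -1.42 to -0.27). The edgeR quasi-likelihood p was 0.00811 before adjustment, the 38th smallest of 18193, and 1.00 after it. Permuting the pools (exact, two-sided, on log2 CPM) gave p = 0.0571, where 4 pools against 4 allow 0.0286 at the smallest. In the fit MTHFD2 had a biological coefficient of variation of 27.8%. The median was 29.9% in the 200 tested genes nearest to it in mean CPM. The fit draws each gene's value toward that of genes at a like level, so this closeness is partly built in. With any single pool left out the log2 fold change of MTHFD2 lay between -0.999 and -0.724.

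None of the 3 enzymes of serine synthesis passed the test, and the 95% intervals of their log2 fold changes lay between -0.53 and 0.35. PHGDH (gene ID 101111328), phosphoglycerate dehydrogenase, carries the committing step of the route. It was at 214, 271, 173 and 219 CPM in food-restricted pools 1 to 4, against 199, 182, 249 and 236 CPM in well-fed pools 1 to 4. Food-restricted pools held both the highest and the lowest value, so the well-fed range lay inside the food-restricted one. The means were 219 ± 40.1 CPM in food-restricted and 217 ± 31.3 CPM in well-fed pools (SD, n = 4 each), and the log2 fold change was 0.02 (SE 0.15, 95% interval -0.31 to 0.35).

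PSAT1 (gene ID 101120382), the phosphoserine aminotransferase of the next step, was at 130, 104, 137 and 112 CPM in food-restricted pools 1 to 4, against 142, 143, 131 and 112 CPM in well-fed pools 1 to 4. The 2 highest values were well fed and the 2 lowest were food-restricted pool 2 and food-restricted pool 4, the last within 1 CPM of well-fed pool 4. The log2 fold change was -0.13 (SE 0.12, 95% interval -0.40 to 0.15). PSPH (gene ID 100145875), the phosphatase that releases free serine, was at 9.53, 11.4, 10.8 and 13.9 CPM in food-restricted pools 1 to 4, against 11.2, 14.8, 11.0 and 13.9 CPM in well-fed pools 1 to 4. Its log2 fold change was -0.16 (SE 0.17, 95% interval -0.53 to 0.22), with the groups overlapping over most of their range.

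ASNS (gene ID 101120073), which makes asparagine from aspartate and glutamine and is a standard readout of the amino acid response in cultured cells, did not pass either. It was at 98.1, 90.6, 124 and 101 CPM in food-restricted pools 1 to 4, against 114, 112, 83.1 and 89.4 CPM in well-fed pools 1 to 4. Food-restricted pool 3 was the highest of the 8 and well-fed pool 3 the lowest. The fitted difference was 0.06 on the log2 scale (SE 0.14, 95% interval -0.26 to 0.37).

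**Figure D2:**
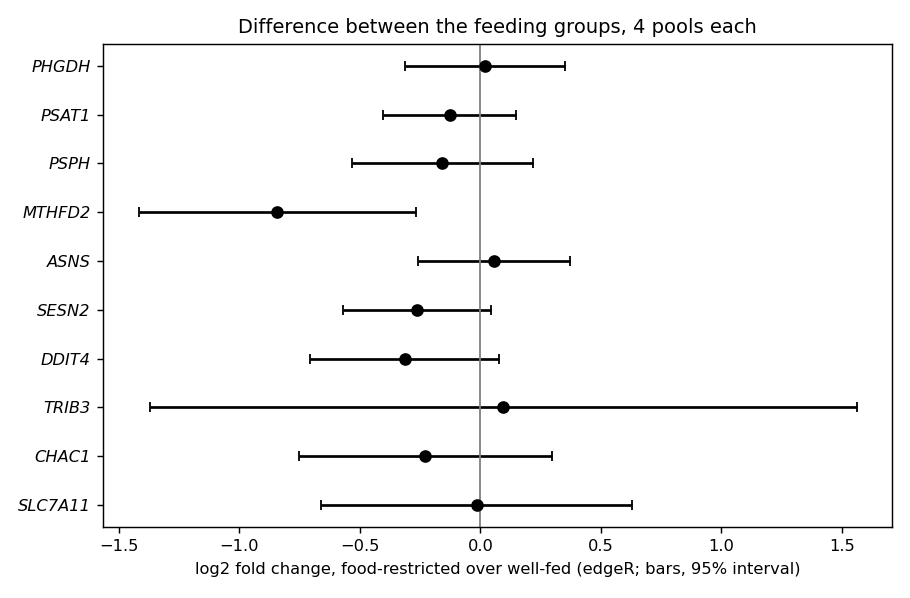
Fitted log2 fold change (x axis, food-restricted over well-fed; dots) of each gene with its 95% interval (bars) from the edgeR quasi-likelihood fit, 4 pools a group. The interval of MTHFD2 (-1.42 to -0.27) lies below 0 before adjustment, those of the other 9 genes include 0, and TRIB3 has the widest (-1.37 to 1.56).

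Of the 2 genes that restrain the growth kinase mTORC1, both had lower means in food-restricted pools, and neither passed the test. SESN2 (gene ID 101110659), sestrin 2, binds leucine and holds back mTORC1 when leucine is short. It was at 17.1, 17.2, 15.1 and 20.3 CPM in food-restricted pools 1 to 4, against 22.1, 22.8, 18.5 and 20.2 CPM in well-fed pools 1 to 4. Food-restricted pools 1, 2 and 3 lay below every well-fed pool, and food-restricted pool 4 lay among them. The log2 fold change was -0.26 (SE 0.14, 95% interval -0.57 to 0.05), with an edgeR unadjusted p of 0.0877 and an adjusted p of 1.00.

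DDIT4 (gene ID 101114584), also called REDD1, acts on mTORC1 through the TSC complex and is induced by glucocorticoids and hypoxia as well as by ATF4. It was at 62.5, 87.0, 53.7 and 58.2 CPM in food-restricted pools 1 to 4, against 69.8, 69.2, 100 and 85.7 CPM in well-fed pools 1 to 4. Food-restricted pool 2 was the second highest of the 8, and the other 3 food-restricted pools lay below every well-fed pool. Its log2 fold change was -0.31 (SE 0.18, 95% interval -0.71 to 0.08), with an edgeR unadjusted p of 0.106 and an adjusted p of 1.00. With single pools left out it ranged from -0.47 without food-restricted pool 2 (edgeR unadjusted p = 0.0146, adjusted p = 0.964) to -0.18 without well-fed pool 3 (unadjusted p = 0.329, adjusted p = 1.00). Without food-restricted pool 2 the genes at an unadjusted p under 0.05 also grew to 4.44% of all tested, against 1.7% with all pools.

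A list of glucocorticoid-induced genes was read beside DDIT4. Of its 11 tested genes, 9 had a log2 fold change below 0, against 47.1% of all tested genes, and 2 above (PER1 and ERRFI1). The median of the 11 was -0.38, against 0.01 over all tested genes. By edgeR with no covariate none was called. DESeq2 called 2 of them lower (ARRDC2, adjusted p = 0.00136, and ZBTB16, adjusted p = 0.00863). The split of the pools along the first principal component, described further on, was also used as a block. With it edgeR called 3 lower (ARRDC2, adjusted p = 0.0102, and ZBTB16 and FKBP5, both 0.0487). That split was drawn from the same expression values, so these p-values cannot be read as those of a block set beforehand. Under it 4.49% of all tested genes stood at an unadjusted p under 0.05, against 1.7% with no covariate. ARRDC2 was at 17.1 ± 2.39 CPM in food-restricted and 31.7 ± 4.11 CPM in well-fed pools (SD, n = 4 each). Their summed level was 797 to 851 CPM with food restriction and 963 to 1029 CPM in the well-fed group, without overlap. FKBP5, which binds the receptor complex for glucocorticoids, was at 64.5 ± 10.1 CPM in food-restricted and 101 ± 8.14 CPM in well-fed pools, and ZBTB16, a transcription factor, at 48.1 ± 5.98 CPM in food-restricted and 82.1 ± 12.2 CPM in well-fed pools (SD, n = 4 each). Their part in the values of DDIT4 was not tested.

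The remaining 3 genes did not pass the test either. CHAC1 (gene ID 101114872), which breaks down glutathione, was at 9.23, 9.79, 4.90 and 7.73 CPM in food-restricted pools 1 to 4, against 7.12, 8.97, 9.40 and 11.6 CPM in well-fed pools 1 to 4. Food-restricted pool 3 was the lowest and well-fed pool 4 the highest, with the other 6 mixed between the groups. The log2 fold change was -0.23 (SE 0.24, 95% interval -0.75 to 0.30).

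SLC7A11 (gene ID 100820755), the light chain of the exchanger that brings in cystine for glutamate, was at 2.60, 1.75, 2.92 and 2.02 CPM in food-restricted pools 1 to 4, against 3.23, 2.29, 1.75 and 2.11 CPM in well-fed pools 1 to 4. The groups overlapped over most of their range, with the highest value in well-fed pool 1, and the log2 fold change was -0.02 (SE 0.29, 95% interval -0.66 to 0.63).

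TRIB3 (gene ID 101122616), a pseudokinase that ATF4 induces and that in turn restrains it, had 8 to 56 reads a pool. It was at 1.31, 0.599, 0.187 and 0.261 CPM in food-restricted pools 1 to 4, against 0.571, 0.780, 0.542 and 0.310 CPM in well-fed pools 1 to 4. Food-restricted pools held both extremes, 7.03-fold apart. The log2 fold change was 0.10 (SE 0.66, 95% interval -1.37 to 1.56), and it was -0.65 without food-restricted pool 1, so no direction can be given for TRIB3 at this depth.

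The 8 pools also differed among themselves in a way that ran across the feeding groups. On the first principal component of log2 CPM, which held 34.7% of the variance, food-restricted pools 3 and 4 and well-fed pools 1 and 2 lay above 0 and the other 4 below. In both feeding groups DDIT4, CHAC1 and PHGDH were lower in the pools above 0 than in those below. For DDIT4 this difference in mean log2 CPM was -0.40 in food-restricted and -0.42 in well-fed pools. For CHAC1 it was -0.62 in food-restricted and -0.38 in well-fed pools, and for PHGDH -0.30 in food-restricted and -0.35 in well-fed pools. ASNS, PSAT1, SLC7A11, PSPH and SESN2 were higher there in both groups. The difference for ASNS was 0.25 in food-restricted and 0.39 in well-fed pools. For PSAT1 it was 0.09 in food-restricted and 0.23 in well-fed pools, and for SLC7A11 0.18 in food-restricted and 0.49 in well-fed pools. For PSPH it was 0.23 in food-restricted and 0.06 in well-fed pools, and for SESN2 0.03 in food-restricted and 0.21 in well-fed pools. MTHFD2 and TRIB3 differed in sign between the groups. These sides were drawn from the same expression values, so the differences are a description, with no test.

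PHGDH and ASNS, both targets of ATF4, thus had opposite orders over the pools. Over the 8 pools Pearson's r of their log2 CPM was -0.919 (exact permutation p = 0.00169) and Spearman's rho was -0.881 (exact permutation p = 0.00724). Of the 45 pairs among the 10 genes this had the largest r in size (by rho it was ASNS and CHAC1, at -0.905), and it did not pass over the 45 pairs (Benjamini-Hochberg adjusted exact permutation p = 0.0759 for r and 0.161 for rho). Without the 2 pools farthest from the median of PHGDH, r was -0.942. PHGDH and PSAT1, adjacent steps of 1 route, also ran against each other, with r = -0.761 and rho = -0.762 (exact permutation p = 0.0343 and 0.0368, adjusted p = 0.195 and 0.184). That r was -0.667 without the 2 pools farthest from the median of PSAT1. PSPH, the last enzyme of the route, had r of -0.082 with PHGDH and -0.197 with PSAT1. Of the 45 pairs, 9 had an unadjusted exact permutation p under 0.05 for r, and 0 passed after adjustment. The 9 held both signs, with positive r for ASNS and SLC7A11 (0.812) and for PHGDH and DDIT4 (0.764). With 4 pools on each side of the first principal component, no r was computed within a side. The permutations treat the 8 pools as exchangeable, although the pools share the split described above. On that split PHGDH went opposite to ASNS and PSAT1. These p-values therefore cannot tell a relation between 2 genes from the split. The share of all gene pairs with an r of this size was not computed.

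**Figure D3:**
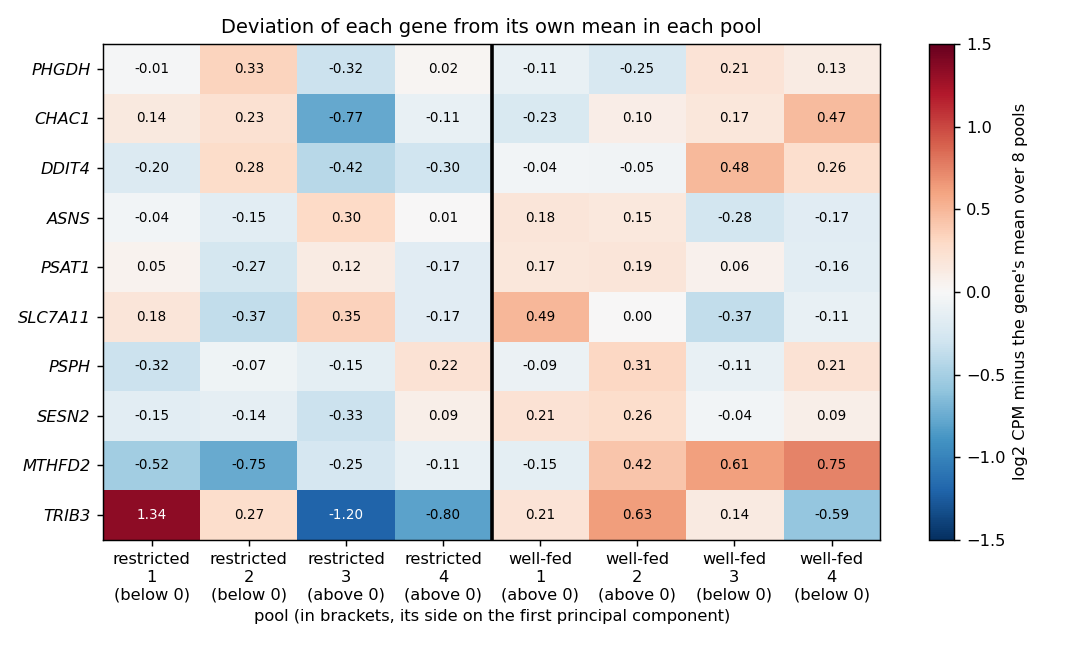
Log2 CPM of each gene (rows) minus its mean over the 8 pools, in food-restricted pools 1 to 4 and then well-fed pools 1 to 4 (columns), with its side of 0 on the first principal component (above or below) in brackets. PHGDH is high where ASNS is low (0.33 and -0.15 in food-restricted pool 2, 0.21 and -0.28 in well-fed pool 3), and MTHFD2 is below its mean in all 4 food-restricted pools and in well-fed pool 1.

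Within the sides, the difference between food-restricted and well-fed pools kept its sign for MTHFD2, DDIT4, SESN2, CHAC1, PSAT1 and PSPH. For MTHFD2 it was -1.32 on the log2 scale in the 4 pools below 0 and -0.31 in the 4 above. For DDIT4 it was -0.33 below and -0.31 above, and for SESN2 -0.17 below and -0.36 above. The sign differed between the sides for PHGDH (-0.01 below, 0.03 above), ASNS (0.13 below, -0.01 above), SLC7A11 (0.15 below, -0.16 above) and TRIB3 (1.03 below, -1.41 above). Each value sets 2 food-restricted pools against 2 well-fed pools, with no test. With the side as a block in edgeR, none of the 10 was called.

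MTHFD2 followed another order over the pools. Among 15828 tested genes with a mean of at least 1 CPM, the 5 whose log2 CPM was most like that of MTHFD2 over the 8 pools, by Pearson's r, were S100A11, GPHA2, ALDH1A2, NONO and LOC101122127, with r between 0.924 and 0.955. For PHGDH they were BAIAP2, NCKAP5L, CLCN7, CAD and ECE1, with r of 0.991 to 0.995. For DDIT4 they were USP2 (r = 0.995), NFKBIA (0.973), PTPRN, FOXS1 and KIAA0895L (0.961). These are the highest of many candidates over few pools that also share the split above, and they are given as a description, with no p. Such an r also takes in any difference between the feeding groups. The 5 genes named for MTHFD2 had log2 fold changes of -0.85 to -0.13. With each group's mean taken off, r was 0.783 to 0.973 for these, 0.992 to 0.996 for those of PHGDH and 0.958 to 0.993 for those of DDIT4.

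The genes around the 10 in the same pathways gave no call over all genes. In serine and folate metabolism 0 of 21 tested genes were called in either direction, and the median was 0.02. The log2 fold change was above 0 in 16 and below in 5, against 47.1% of all tested genes below 0. SHMT2, which splits serine in mitochondria one step before MTHFD2, was at 43.7 ± 4.87 CPM in food-restricted and 48.0 ± 5.09 CPM in well-fed pools (SD, n = 4 each; log2 fold change -0.13, SE 0.13). MTHFD1L, the step after MTHFD2, had a log2 fold change of 0.01 (SE 0.13), and cytosolic SHMT1 one of 0.09 (SE 0.13). The related gene MTHFD2L was at a mean of 7.71 CPM in food-restricted and 7.66 CPM in well-fed pools (n = 4 each). The log2 fold change of MTHFD2L was 0.008 (SE 0.16). The folate enzyme ALDH1L1, an astrocyte gene, varied from 25.9 to 70.3 CPM with food restriction and from 23.1 to 54.5 CPM in the well-fed group. The smallest p in this list belonged to MTFMT (0.34, SE 0.24), GLDC of glycine cleavage (-0.19, SE 0.14) and SDSL (0.15, SE 0.13), given as log2 fold changes.

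Among the stress kinases, ATF4 and its partners, 0 of 24 tested genes were called, 19 had a log2 fold change below 0, and the median was -0.08. ATF4 was at 335, 293, 327 and 334 CPM in food-restricted pools 1 to 4, against 342, 364, 316 and 346 CPM in well-fed pools 1 to 4. The pools overlapped, and the log2 fold change was -0.09 (SE 0.09). EIF2AK4, which encodes GCN2, was at 41.4 ± 5.88 CPM in food-restricted and 41.5 ± 4.62 CPM in well-fed pools (SD, n = 4 each). DDIT3 (CHOP) had a log2 fold change of -0.04 (SE 0.14) and NUPR1 one of -0.08 (SE 0.18), both being ATF4 targets. The smallest p belonged to ATF3, CEBPB and EIF2AK3. ATF3, a stress-induced partner of ATF4, had a log2 fold change of 0.43 (SE 0.23). CEBPB had one of -1.17 (SE 0.67) at a mean of 0.439 CPM in food-restricted and 0.992 CPM in well-fed pools, and EIF2AK3 (the kinase PERK) one of -0.23 (SE 0.16).

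**Figure D4:**
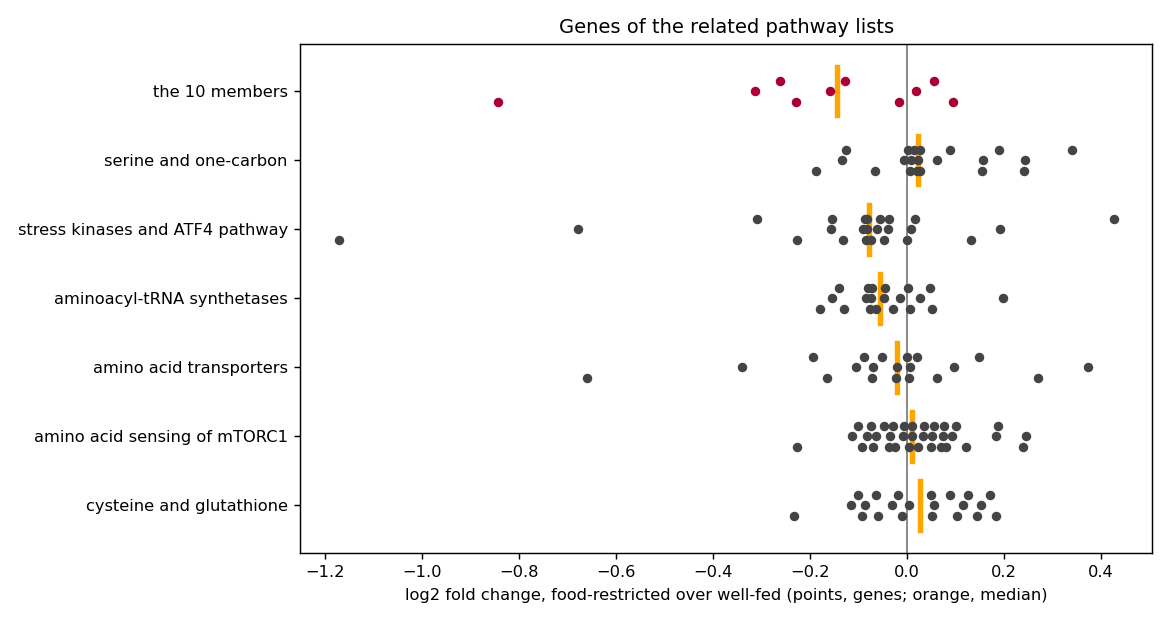
Log2 fold change (x axis, food-restricted over well-fed) of every tested gene in the 10 described here (red) and in 6 lists of related genes (grey), with the median of each list in orange. The list medians lie between -0.08 and 0.03, the median of the 10 genes is -0.14, and no point passed the test over all genes.

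Of the 20 aminoacyl-tRNA synthetases, which load tRNA with amino acids and include several ATF4 targets, none was called. It was 14 of them that had a log2 fold change below 0, against 47.1% of all tested genes, and the median of the 20 was -0.06. MARS1 (-0.18, SE 0.10), YARS1 (-0.16, SE 0.12) and LARS1 (-0.14, SE 0.13) had the smallest p, and SARS1, the seryl-tRNA synthetase, was at -0.08 (SE 0.11).

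Amino acid transporters held the gene with the smallest p of the 6 lists, which did not pass over all genes. SLC7A8 (LAT2), a carrier of neutral amino acids, was at 24.2, 28.9, 25.0 and 28.4 CPM in food-restricted pools 1 to 4, against 36.2, 32.0, 36.0 and 30.6 CPM in well-fed pools 1 to 4. The groups did not overlap. Its log2 fold change was -0.34 (SE 0.12; edgeR unadjusted p = 0.0175, adjusted p = 1.00), and the exact two-sided permutation p was 0.0286, the smallest that 4 against 4 allow. Of the 20 tested transporters 0 were called, and 1 did not overlap between the groups, against 1.1% of all genes that were lower without overlap. SLC7A6 (-0.66, SE 0.32) and SLC36A4 (0.27, SE 0.17) had the next smallest p in this list. SLC3A2, the heavy chain that SLC7A11 and SLC7A8 need, was at 156 ± 7.93 CPM in food-restricted and 156 ± 10.9 CPM in well-fed pools (SD, n = 4 each). SLC7A5 (LAT1) had a log2 fold change of 0.02 (SE 0.15) and SLC38A2, an ATF4-induced carrier of small neutral amino acids, one of -0.05 (SE 0.12).

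The sensing arm of mTORC1 had 0 of 35 tested genes called and a median log2 fold change of 0.01. SESN1 (-0.07, SE 0.13) and SESN3 (-0.06, SE 0.13) are the other sestrins. RRAGA, a Rag GTPase, had the smallest p (-0.23, SE 0.11), followed by MIOS (0.24, SE 0.16) and LAMTOR5 (0.19, SE 0.16). Cysteine and glutathione metabolism had 0 of 22 tested genes called and a median of 0.03. GCLC, the first step of glutathione synthesis, had a log2 fold change of -0.09 (SE 0.12) and CTH, which makes cysteine from cystathionine, one of -0.12 (SE 0.16). CBS, which makes cystathionine, was at 0.15 (SE 0.11) and the cysteine carrier SLC1A1 at 0.17 (SE 0.13), both among the smallest p of that list.

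Markers of the tissue and of the cell types that could carry these genes were read beside the 10. The 14 markers of the mediobasal hypothalamus were all detected, with 8 above 0 and 6 below. They summed to 839 to 1211 CPM in food-restricted and 604 to 1293 CPM in well-fed pools. At an edgeR unadjusted p under 0.05 stood 4 of the 14, among them AGRP, against 1.7% of all tested genes. The 12 astrocyte markers, which bear on PHGDH and PSAT1, summed to 13094 to 14857 CPM in food-restricted and 13507 to 14777 CPM in well-fed pools, with 7 above 0 and 5 below. GFAP, the astrocyte filament gene, was at 6060 ± 833 CPM in food-restricted and 6652 ± 471 CPM in well-fed pools, and the water channel AQP4 at 19.2 ± 4.18 CPM in food-restricted and 24.0 ± 10.7 CPM in well-fed pools (SD, n = 4 each). Neither passed the test, and both are among the 5 below 0. Of the 7 above 0, GJB6, an astrocyte connexin, was at 34.1 ± 4.61 CPM in food-restricted and 28.1 ± 0.429 CPM in well-fed pools, with an edgeR unadjusted p of 0.0488, the smallest of the list, and an adjusted p of 1.00. Summed levels also overlapped for neurons, oligodendrocytes and their progenitors, microglia, tanycytes and ependymal cells, endothelium and pericytes, choroid plexus and pituitary. Red blood cell markers were the exception, at 0 to 0.796 CPM with food restriction and 0.910 to 3.73 CPM in the well-fed group. Nearly all of this was HBB (beta globin), and ALAS2 was at 0 in all 8 pools. In food-restricted pool 3 the list had 0 reads, which for 1 gene allows up to 0.0700 CPM (3 reads, counting error only). A summed level follows the most abundant markers and does not show each one. Of the tanycyte and ependymal markers, 8 had a log2 fold change above 0 and 3 below. Among the latter, DIO2 was at 62.0 ± 13.8 CPM in food-restricted and 93.7 ± 15.7 CPM in well-fed pools (SD, n = 4 each). Its edgeR unadjusted p was 0.00564, and it was not called. Of the endothelial and pericyte markers, 5 were above 0 and 5 below. Among the latter, KCNJ8 was lower without overlap, as were 1.1% of all tested genes. The edgeR unadjusted p of KCNJ8 was 0.0519, and it was not called. The part of these cell types in the values of the 10 genes was not tested.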

How the data were processed

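The deposited table holds raw read counts per gene, per the file headers 1 column per pool. Libraries were built with a stranded TruSeq mRNA kit, per the labels. Among the tools in the submitters' processing notes are featureCounts 2.0.0, SAMtools 1.9, Bowtie2 2.3.5.1 and TopHat2 2.1.1. Genome build, annotation and strand setting: not given in the sources used here. In a RefSeq gene table (ARS-UI_Ramb_v3.0, used for names and neighbours only; 83.6% of IDs matched) none of the 10 genes overlapped a gene with counts. Total counts were 41261774 to 42964514 in food-restricted and 36192025 to 48125991 in well-fed pools. Within a group no pair of pools agreed within counting error (chi-square over its degrees of freedom was 25.0 to 169), and the labels are the ground for treating them as replicates.

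The analysis used edgeR 4.0.16 (R 4.3.3): filterByExpr (minimum count 10, minimum total 15), TMM scaling, glmQLFit and glmQLFTest with no covariate, and Benjamini-Hochberg adjustment over the 18193 genes kept. Log2 CPM used a prior count of 2. Each SE was derived from the fold change and its F value, and 95% intervals use the degrees of freedom of the fit. The test was checked on simulated counts. Alternatives were 3 other scalings, 2 other filters, DESeq2 1.42.0, limma 3.58.1 voom, robust edgeR, the replicate number as a block, the side on the first principal component (PC1) as a block, and each pool left out. Figures were drawn in Python 3.11.15 with matplotlib 3.10.9.

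The 10 genes and the lists around them were chosen with earlier results of these data known. Named beside the 10 were 16 fixed genes, the 3 genes with the smallest p in each pathway list and any called gene of these lists, GFAP, AQP4, FKBP5 and ZBTB16 as markers, and the 5 genes most like MTHFD2, PHGDH and DDIT4. AGRP, HBB, ALAS2, GJB6, DIO2, KCNJ8, PER1, ERRFI1, ARRDC2 and MTHFD2L were named after their values were seen. One gene that this rule names is not reported here. Promoter sequences were not analysed here.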

Additional observations from a re-analysis of the deposited data

How the results depend on the processing

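None of the 10 genes, and no gene of the 6 pathway lists, was called under any of the 18 alternatives that tested it (TRIB3 did not pass the filter of at least 1 CPM in 4 pools). MTHFD2 kept its sign in all of them (log2 fold change -0.999 to -0.724) and its unadjusted p stayed at or below 0.0299. The signs of DDIT4, SESN2, CHAC1, PSPH and PSAT1 also held in all 18, while single pools left out moved the log2 fold change between -0.47 and -0.18 for DDIT4, -0.33 and -0.20 for SESN2, -0.34 and -0.056 for CHAC1, -0.26 and -0.075 for PSPH, and -0.20 and -0.046 for PSAT1. The number of the 10 genes at an unadjusted p under 0.05 was 1, and 2 with the side on PC1, the first principal component, as a block; with single pools left out it was 1 to 2. Over all genes that share was 1.7%, and 4.49% with the side as a block, 4.44% without food-restricted pool 2 and 1.83% without food-restricted pool 4, the other settings with 2. Over all genes the 1 call became 4 with DESeq2 (3 of them lower), 6 with the side as a block (2 higher, 4 lower), and 0 with the replicate number as a block or with any 1 pool left out. Same-numbered pools did not deviate together (correlations of -0.42 to -0.21), and 0 of 4 pools were most like their own number. Each same-numbered pair lay on opposite sides of 0 on PC1, so the replicate block joins unlike pools. Under it 0.643% of all tested genes had an unadjusted p under 0.05, and MTHFD2 was at -0.83.

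Signs of genes near 0 turned. TRIB3 was at -0.25 with limma voom, -0.21 with the replicate block and -0.16 with the side as a block, SLC7A11 at 0.0029 with the side as a block, EIF2AK4 at 0.0072 with size factors of the DESeq2 kind and 0.0072 with DESeq2, and SLC3A2 at -0.0029 with upper-quartile scaling. With single pools left out the ranges were -0.083 to 0.12 for PHGDH, -0.043 to 0.13 for ASNS, -0.65 to 0.39 for TRIB3, -0.15 to 0.18 for SLC7A11, -0.041 to 0.086 for MTHFD1L, -0.079 to 0.51 for ALDH1L1, -0.097 to 0.072 for EIF2AK4, -0.13 to 0.064 for DDIT3, -0.21 to 0.057 for NUPR1, -0.025 to 0.064 for SLC3A2, -0.11 to 0.11 for SLC7A5, -0.15 to 0.011 for SLC38A2, -0.14 to 0.0028 for SESN1 and -0.16 to 0.053 for SESN3. TRIB3 had 8 to 56 counts a pool and SLC7A11 73 to 147. The cause of these turns was not tested.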
